A study of Mus musculus with 8 samples.

Results

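Small noncoding RNAs made by RNA polymerase III were followed through an RNA immunoprecipitation (RIP) experiment on mouse brain tissue. The 6 genes described are Bc1, Rn7sk, Rmrp, Rpph1, Rny1 and Rny3, taken by symbol from a table of 55401 genes. The table gives versioned Ensembl identifiers, so each symbol was joined by its GRCm38 position. All 6 were found, and 4 of them had at least 1 count.

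In RIP, an antibody pulls a protein out of a lysate and the RNA that comes along is sequenced. The tissue came from C57BL/6 mice, is labelled hippocampus, and carried no treatment or mutation that the labels name. Its 8 libraries form 3 groups: 3 made with an antibody to CaMKIIβ (a subunit of a calcium-activated kinase of synapses), 3 made with control IgG, and 2 of Input RNA that was not immunoprecipitated. The title asks which long noncoding RNAs bind CaMKIIβ, and Bc1 is classed in RefSeq as a long noncoding RNA. The labels do not say that replicates came from separate animals, nor which Input belongs to which RIP library, so p-values measure only the spread between these libraries.

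RNA polymerase III transcribes short, untranslated RNAs, either from promoter elements inside the transcribed stretch or from elements upstream of it. Bc1 encodes BC1 RNA, a rodent neuronal transcript that travels into dendrites and represses translation. Rn7sk encodes the nuclear 7SK RNA, which holds the elongation factor P-TEFb in an inactive particle. Rpph1 encodes the RNA of RNase P, the nuclease that trims transfer RNA precursors, and Rmrp the related RNA of RNase MRP, which takes part in ribosomal RNA processing. Rny1 and Rny3 encode Y RNAs, which are bound by Ro60 and La.

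Bc1 was the member whose start could be read from the RefSeq promoter table. It is shown because its promoter lies partly within the transcript. The stretch lies on the plus strand of GRCm38.p6 at chr7:144914410-144914519 and holds 60 bases before the RefSeq start and 50 transcribed bases. The capitals mark the match to GCNNAGTGG, the core of the A box, an internal element of polymerase III promoters.
Bc1: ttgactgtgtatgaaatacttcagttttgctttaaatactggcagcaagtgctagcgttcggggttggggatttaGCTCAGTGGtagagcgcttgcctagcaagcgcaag
The match covers bases 16 to 24 of the transcript. On either strand the motif was present in 1843 of 32851 windows of the table (5.61%), each reaching from 250 bases before to 50 after a gene's start. The first 25 transcribed bases of Bc1 occurred in 2 of these windows and the first 30 in 1, its own. A match describes letters and was not tested as a site. For Rn7sk, Rmrp, Rpph1, Rny1 and Rny3, which the table does not list, the position is given alone.

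The Ensembl gene of Bc1 (ENSMUSG00000115783.1) lies on chromosome 7 from 144914470 to 144914637 on the plus strand and is 168 bases long. RefSeq ends it at 144914623, for 154 bases. Rn7sk (ENSMUSG00000065037.1) spans 331 bases of chromosome 9, from 78175303 to 78175633 on the minus strand. Neither shares an exon base with another gene of the table. The next gene after Bc1 on chromosome 7, LTO1, begins beyond a gap of 462 bases, and C920006O11Rik lies 280 bases from Rn7sk. Bc1 belongs to the family of ID repeats and 7SK RNA has many copies in the genome. The treatment of reads with several positions is not given in the sources used here, so part of their reads could have been split or dropped, and comparing the 2 levels carries that limit. The gene at the place of the pseudogene Bc1-ps1 (ENSMUSG00000109440.1) had 0 counts in all 8 libraries.

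The libraries held 17273957 to 28138289 counts. CaMKIIβ RIP replicate 2 stood apart. For 5262 genes the rest of its group predicted 20 to 100 counts in it, and 20.7% of them had 0. The same share was 2.93% and 3.90% in CaMKIIβ RIP replicates 1 and 3, 0.0721% to 0.398% in IgG RIP and 0% in Input. Where a value turned on this library, it is also given without it. The tissue label was checked against marker genes. The 12 telencephalic and hippocampal markers summed to 416 to 430 CPM in Input (CPM, counts relative to library depth, here scaled by TMM over the 8 libraries), and 13 cerebellar markers to 7632 to 7697 CPM. All 25 were above 1 CPM in both Input libraries. The sums were 427 to 529 and 13247 to 15163 CPM in CaMKIIβ RIP, and 477 to 504 and 13546 to 14296 CPM in IgG RIP. The higher cerebellar sum came from Itpr1 and Fat2. Their means were 2465 and 1519 CPM in Input, 6572 and 4333 with CaMKIIβ, and 6259 and 4395 with IgG. Of the 13 cerebellar markers, 3 were higher and 3 lower than Input with CaMKIIβ (edgeR adjusted p under 0.05), and 6 and 4 with IgG. Of all genes tested, 5.06% were higher and 3.4% lower with CaMKIIβ, and 20.1% and 18.7% with IgG. In all 8 libraries the cerebellar sum exceeded the telencephalic and hippocampal sum, so these markers do not bear out a label of hippocampus alone. The part of the tissue makeup in the results was not tested. In bulk tissue, fewer cells of a type and less RNA per cell cannot be told apart.

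Rn7sk was one of the most abundant genes of every library. It had 115331, 186615 and 122802 counts in CaMKIIβ RIP replicates 1, 2 and 3. The IgG RIP libraries held 138137, 116764 and 194784, and the Input libraries 75685 and 101965. By counts it ranked 7, 1 and 4 among all genes in CaMKIIβ RIP, 4, 6 and 2 in IgG RIP, and 3 and 4 in Input. Its share of all counts was 0.456% to 1.08% in CaMKIIβ RIP, 0.529% to 0.692% in IgG RIP and 0.426% to 0.477% in Input. The widest 95% interval of these shares (exact binomial) was 1.08% to 1.09%, in CaMKIIβ RIP replicate 2. Such intervals cover counting error only. Of 955 genes classed as small nuclear RNA, 384 had counts, and Rn7sk held 98.6% of the counts of the class.

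Bc1 was far less abundant and was highest in Input. Its counts were 92, 0 and 68 in CaMKIIβ RIP replicates 1, 2 and 3, and 57, 66 and 86 in IgG RIP. Input held 292 and 217. Bc1 was thus counted in 7 of 8 libraries. In CPM unscaled by TMM, the exact 95% intervals were 14.6 to 18.4 and 8.85 to 11.6 in the Input libraries, which do not overlap. The highest bound in any RIP library was 4.46, below both. In CaMKIIβ RIP replicate 2 the exact 95% upper bound of the 0 was 0.214 CPM on that scale (0.174 by the limit of 3 counts of the total), while 58.8 counts of Bc1 were expected from replicates 1 and 3. Both bounds cover counting error only.

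On the CPM scale, the mean level of Bc1 was 11.9 ± 3.96 in Input (SD, n = 2), from 9.10 to 14.7. With IgG it was 2.96 ± 0.34 (n = 3), from 2.58 to 3.23. With the CaMKIIβ antibody it was 2.39 ± 2.08 (n = 3), from 0 to 3.84, and 3.58 ± 0.361 without replicate 2. Both Input libraries lay above all 6 RIP libraries. The level of Rn7sk was 4045 ± 328 in Input (n = 2), 6338 ± 938 with IgG and 7232 ± 3214 CPM with CaMKIIβ (n = 3 each). All 6 RIP libraries of Rn7sk, from 4810 to 10877 CPM, lay above both Input libraries, at 3813 and 4277. This separation depended on the scaling. Unscaled by TMM, CaMKIIβ RIP replicate 1, at 4559 CPM, lay below Input replicate 2, at 4774. Without CaMKIIβ RIP replicate 2, the highest of the 8, the scaled CaMKIIβ mean was 5409 ± 847.

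**Figure D1:**
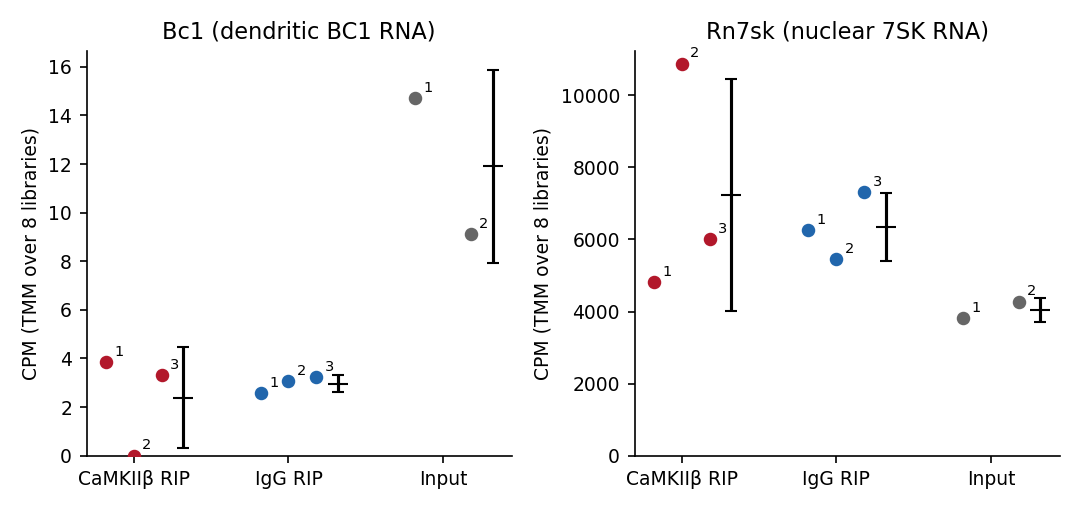
Level of Bc1 (left) and Rn7sk (right) in each library, in CPM scaled by TMM over 8 libraries, with numbered replicates as points and the group mean ± SD as a bar beside them. On this scale Bc1 is at 9.10 and 14.7 CPM in Input and at most 3.84 in any RIP library. Rn7sk is at 4810 CPM or more in every RIP library and at 3813 and 4277 in Input, a separation that is not complete without the scaling.

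Per kilobase of exon length, the level in Input was 12220 ± 992 CPM for Rn7sk and 70.9 ± 23.6 for Bc1 (SD, n = 2). With IgG these levels were 19147 ± 2835 and 17.6 ± 2.02 CPM per kilobase, and with CaMKIIβ 21847 ± 9709 and 14.2 ± 12.4 (n = 3 each). Rn7sk exceeded Bc1 in each library, and the distance between them was wider in RIP than in Input. A ratio of counts within a library needs no scaling. There were 259 and 470 Rn7sk counts per Bc1 count in Input. The IgG RIP libraries had 2423, 1769 and 2265, and CaMKIIβ RIP replicates 1 and 3 had 1254 and 1806. In CaMKIIβ RIP replicate 2 Bc1 was at 0, and setting it to 3 counts gave a lower bound of 62205. This bound covers counting error only. Of the genes expected at 20 to 100 counts in that library, 20.7% were at 0. The Input libraries lay below all 6 RIP libraries, while the ratios of the antibodies overlapped. The ratio shows that the RNAs changed unequally, not that either held its amount.

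**Figure D2:**
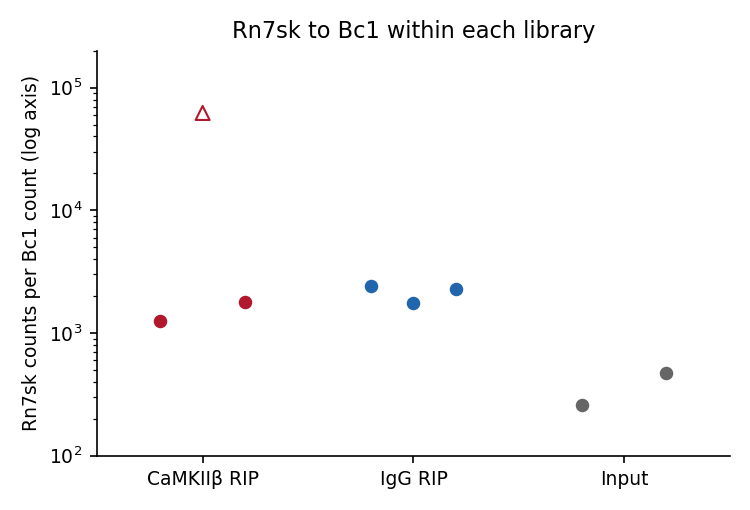
Counts of Rn7sk per count of Bc1 in each library on a log axis, with replicates 1, 2 and 3 of a group from left to right. The open triangle is a lower bound for counting error only (Bc1 at 0, set to 3 counts). The ratio is 259 and 470 in Input and at least 1254 in every RIP library.

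IgG RIP against Input sets RNA levels after precipitation with control IgG beside those of RNA that was not precipitated. The parts of the antibody and of the other steps cannot be told apart here. Bc1 fell and Rn7sk rose. With IgG, Bc1 was 3.96-fold lower (log2 fold change -1.99 ± 0.23, SE, n = 3 and 2; 95% interval -2.47 to -1.50; edgeR adjusted p = 2.64e-06). Rn7sk was 1.58-fold higher, a log2 fold change of 0.66 ± 0.09 (95% interval 0.47 to 0.85; edgeR adjusted p = 1.87e-05). Of 22342 genes tested by edgeR, 38.7% passed the threshold (Benjamini-Hochberg adjusted p under 0.05), 20.1% higher and 18.7% lower. Both members tested, Bc1 and Rn7sk, passed, in opposite directions, beside that share of all genes. The groups did not overlap in the direction higher for 28.9% of genes and lower for 31.5%. A log2 fold change at or below that of Bc1 was seen for 352 genes (1.58%). One at or above that of Rn7sk was seen for 2800 genes (12.5%).

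Both calls depended on which libraries entered the fit. When all 8 libraries were fitted together, Bc1 was at -2.05 ± 0.87 (edgeR adjusted p = 0.163) and Rn7sk at 0.61 ± 0.27 (0.185). The fit then takes its spread also from CaMKIIβ RIP, with replicate 2 in it. In a fit of the 7 libraries without CaMKIIβ RIP replicate 2, the adjusted p-values were 1.07e-04 for Bc1 and 9.31e-04 for Rn7sk. Against a fold change of at least 2, Bc1 passed and Rn7sk did not.

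CaMKIIβ RIP against Input shares the Input libraries with the comparison above. Bc1 had a log2 fold change of -2.35 ± 1.10 (SE, n = 3 and 2; 95% interval -4.92 to 0.22) and Rn7sk of 0.79 ± 0.32 (0.05 to 1.54). Neither passed the threshold, with edgeR adjusted p-values of 0.271 and 0.191. In CPM scaled by TMM, every CaMKIIβ RIP library was below both Input libraries for Bc1 and above both for Rn7sk. Unscaled, replicate 1 was below Input replicate 2 for Rn7sk. Of 22095 genes tested, 8.45% passed, 5.06% higher and 3.4% lower, and groups did not overlap for 20.6% in the direction higher and 26.5% lower. A fold change at or below that of Bc1 was seen for 2.99% of genes, and 8.57% were at or above Rn7sk. With limma-voom Bc1 was at -3.66 ± 1.34 and did not pass (adjusted p = 0.116).

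These values turned on the replicate without Bc1 counts. Without CaMKIIβ RIP replicate 2, Bc1 was at -1.72 ± 0.31 and passed (edgeR adjusted p = 0.0137). Rn7sk was at 0.43 ± 0.13 and did not (0.0616). In the fit of the other 7 libraries together both passed, Bc1 at -1.71 (9.21e-04) and Rn7sk at 0.43 (0.0232). The count of all genes past the threshold moved from 1868 to 4089 without CaMKIIβ RIP replicate 2 and to 0 without replicate 1. It was 845 and 400 without Input replicates 1 and 2.

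CaMKIIβ RIP against IgG RIP addresses the title's question. No difference was detected for either RNA. Bc1 had a log2 fold change of -0.30 ± 1.01 (SE, n = 3 each; 95% interval -2.57 to 1.96; edgeR adjusted p = 0.991). Rn7sk had one of 0.20 ± 0.25 (95% interval -0.37 to 0.76; edgeR adjusted p = 0.982). The libraries of the antibodies overlapped for both RNAs. The interval of Bc1 holds both a 2-fold excess and a 2-fold deficit, while that of Rn7sk lies within 2-fold on both sides. Without CaMKIIβ RIP replicate 2 both estimates changed sign, to 0.27 ± 0.35 for Bc1 and -0.23 ± 0.12 for Rn7sk, and neither passed (0.917 and 0.837). Bc1 was at -1.64 ± 1.18 with limma-voom, which did not call it either (0.819). Over 20566 genes, 0 passed in either direction (0%) in edgeR, DESeq2 and limma-voom, and 721, 907 and 780 had an unadjusted p under 0.05. Levels are relative to each library, so a difference in the total RNA that the antibodies recovered cannot be seen.

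**Figure D3:**
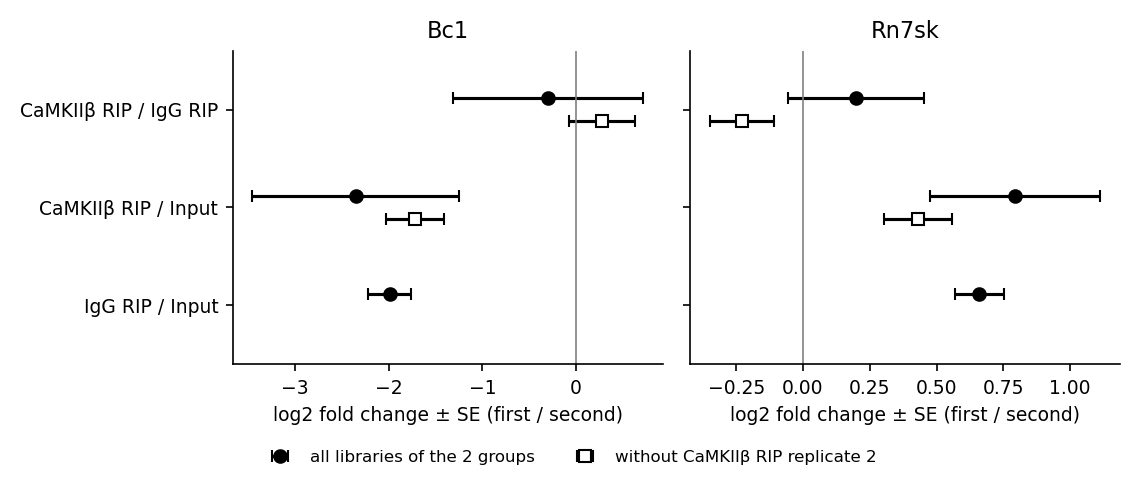
Log2 fold change ± SE of Bc1 (left) and Rn7sk (right) in the 3 comparisons, with filled circles for all libraries of both groups and open squares for the fit without CaMKIIβ RIP replicate 2. Both RNAs lie on opposite sides of 0 against Input, and between the antibodies each changes sign without that replicate (Bc1 from -0.30 to 0.27, Rn7sk from 0.20 to -0.23).

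Rpph1 (ENSMUSG00000092837.1, chromosome 14, 50807449 to 50807767, minus strand, 319 bases) was near the limit of counting. It had 2, 8 and 1 counts in CaMKIIβ RIP, 3, 1 and 3 in IgG RIP, and 3 and 11 in Input. The groups overlapped, at 0.1995 ± 0.232, 0.0984 ± 0.0463 (SD, n = 3 each) and 0.306 ± 0.219 CPM (n = 2). Its 32 counts left it below the filter on low counts, so it was not tested. Of its 319 bases, 233 (73.0%) are also annotated as another gene on the same strand. Parp2, 73 bases away on the plus strand, had 2424 counts over the 8 libraries.

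The Y RNAs gave almost no counts. Rny3 (ENSMUSG00000064945.1, chromosome 6, 47781624 to 47781725, plus strand, 102 bases) had 1 count in IgG RIP replicate 3 and 1 in each Input library, and 0 in CaMKIIβ RIP. Rny1 (ENSMUSG00000065701.1, chromosome 6, 47788069 to 47788180, minus strand, 112 bases) had 0 in all 8 libraries. By the limit of 3 counts, a count of 0 allows up to 0.107 to 0.174 CPM unscaled by TMM, depending on the library. That limit covers counting error only. Neither Y RNA shares a base with another gene. Of all genes 100 to 400 bases long with no shared base, 61.1% had 0 counts throughout. How reads with several positions were treated is not given, so these low counts need not mean low levels.

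The 0 counts of Rmrp cannot be read as a level. RefSeq's Rmrp met 2 Ensembl genes at one place on the minus strand of chromosome 4. They are ENSMUSG00000088088.1 (43492788 to 43493058, 271 bases) and ENSMUSG00000115420.1 (43492783 to 43493063, 281 bases). They share 271 bases with each other, and 124 bases with Ccdc107 on the plus strand, and both had 0 counts in all 8 libraries. In this table, of 789 genes that lie wholly within another gene on the same strand, 777 (98.5%) had 0 counts throughout, and the highest total was 50. All 439 genes that lie wholly within genes of the opposite strand alone had 0 too. Among genes with no shared base 39.3% were at 0, and 61.1% of those 100 to 400 bases long. Of the bases of Rpph1, 27.0% are its own, and the part of partial overlap in its counts was not tested.

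With 4 of 6 members at or under 32 counts in all, the comparisons rest on Bc1 and Rn7sk. Other genes of like length show how unusual their values were. In IgG RIP against Input, genes under 200 bases, to which Bc1 belongs, had a median log2 fold change of -0.24, with 16 higher and 58 lower of 616 tested. Of these 61 were at or below Bc1. Genes of 200 to under 400 bases, to which Rn7sk belongs, had a median of -0.27, with 13 higher and 52 lower of 562, and 70 were at or above Rn7sk. Genes of 4000 bases and over had a median of 0.09, with 3070 higher and 2090 lower of 9151. Bc1 thus lay on the side of its length class. Rn7sk was among the 13 genes of its class that passed as higher, but by size of change it was 1 of the 70 named above.

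**Figure D4:**
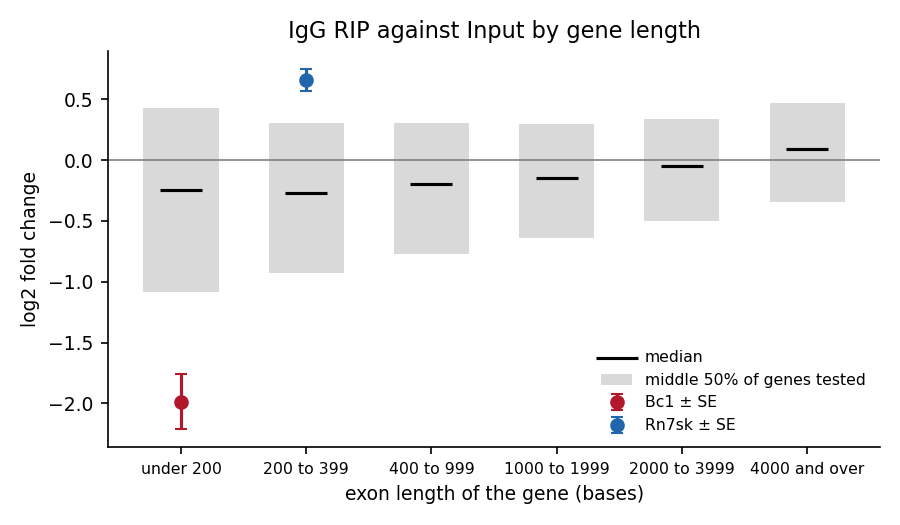
Log2 fold change of IgG RIP against Input by exon length (bases), with the middle 50% of all genes tested as grey boxes, their median as a black line, and Bc1 and Rn7sk as points ± SE at their own length. Bc1 at -1.99 lies below the box of genes under 200 bases and Rn7sk at 0.66 above that of genes of 200 to under 400 bases.

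At a level like that of Bc1 (average log2 CPM within 0.5), 278 genes were higher and 467 lower of 2176 in IgG RIP against Input, and 20 were at or below Bc1. In CaMKIIβ RIP against Input, 6 were higher and 44 lower of 2105, and 7 were at or below it. Among genes that RefSeq classes as long noncoding RNA, 55 were higher and 159 lower of 1320 with IgG, and 22 lay below Bc1. With CaMKIIβ, 1 was higher and 19 lower of 1289, and 65 lay below it. Most abundant genes were higher with IgG, as Rn7sk was. Of the genes down to 3 log2 units under its level, itself included, 114 were higher, 10 were lower and 12 did not pass, and 64 were at or above Rn7sk. With CaMKIIβ the counts were 63 and 8 of 113.

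Genes most like each member across the 8 libraries were found by the root mean square difference of centred log2 CPM, among 14827 genes. All 8 libraries entered this choice, so a pattern shared with the member follows from it and is no separate result. For Bc1 these were the zinc finger gene Zfp931 (0.285), Mcmdc2 (0.399) and the long noncoding Gm46218 (0.421). Each of the 3 was at 0 CPM in CaMKIIβ RIP replicate 2, as Bc1 was. Zfp931 was at 10.2 and 10.1 CPM in Input and at 2.22 to 2.94 with IgG. For Rn7sk the nearest were Rcn3 (0.103), Adgrg6 (0.128) and Znhit2 (0.129). Each was highest in CaMKIIβ RIP replicate 2, as Rn7sk was. Rcn3 was at 7.11 CPM there, 3.42 and 4.06 in replicates 1 and 3, 4.06 to 4.80 with IgG, and 2.52 and 2.98 in Input.

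A list of 27 other named small noncoding RNAs was read beside Bc1. Of these, 17 were in the table and 11 had counts. In IgG RIP against Input 4 were tested, and 3 were lower and 0 higher, with a median of -1.22. Of all genes tested, 18.7% were lower and 20.1% higher. The 7SL RNA of the signal recognition particle, also made by polymerase III, is encoded by Rn7s1 and Rn7s2. Rn7s2 had 222 and 253 counts in Input, 44, 78 and 102 with IgG, and 88, 179 and 106 with CaMKIIβ. Its log2 fold change was -1.77 ± 0.24 with IgG (edgeR adjusted p = 1.54e-05), from 10.9 ± 0.404 to 3.15 ± 1.01 CPM. Rn7s1 was at -1.11 ± 0.40 (0.0369). These are near-identical copies between which reads could have been split, so each value is uncertain and they do not count as separate results. The small nucleolar RNA Snord17 was at -1.32 ± 0.49 (0.0398). In the fit of all 8 libraries 1 of the 3, Rn7s2, passed (0.0148).

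In CaMKIIβ RIP against Input 0 of 5 of these small RNAs passed, beside 8.45% of all genes. Rn7s2 was at -0.81 ± 0.45 and Rn7s1 at -0.96 ± 0.76 (edgeR adjusted p = 0.371 and 0.561). Without CaMKIIβ RIP replicate 2, Rn7s2 passed at -1.29 ± 0.26 (0.0193). Between the antibodies 0 of 4 passed, with Rn7s2 at 1.03 ± 0.46 and Snord17 at 1.90 ± 1.05 (0.982 each). Both rested on CaMKIIβ RIP replicate 2, which held 123 of the Snord17 counts beside 12 and 16 in replicates 1 and 3. Without it Rn7s2 was at 0.48 ± 0.38 and Snord17 at -0.24 ± 0.88. The list median was 0.85 over the 4 genes tested with it and -0.11 over the 5 tested without it, so the sets differ. The spliceosomal genes Rnu1a1, Rnu2-10, Rnu12, Rnu5g and Rnu6, the last one a polymerase III transcript, had 2 to 33 counts each over the 8 libraries. The 3 nuclear transfer RNA genes of the table had 0. No gene of this list exceeded the 1072 counts of Rn7s2, against 1052083 for Rn7sk and 878 for Bc1.

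The messenger RNAs of the polymerase and of proteins that bind its transcripts went both ways in IgG RIP against Input. Of the 72 such genes tested in 6 lists, 16 were higher (22.2%) and 27 lower (37.5%), beside 20.1% and 18.7% of all genes. The all-gene median was -0.02. In the fit of all 8 libraries the shares were 6.94% and 15.3%, beside 8.75% and 7.15% of all genes. Of 17 polymerase III subunit genes 3 were higher and 5 lower (median -0.13). Polr3f (-0.98 ± 0.13) and Polr3k (-0.73 ± 0.12) fell, as did Polr2k (-0.98 ± 0.30), which is shared by the nuclear polymerases. Polr3c rose (0.67 ± 0.13). Of 19 initiation factor and repressor genes 5 were higher and 7 lower (median -0.05). Gtf3c1 (1.07 ± 0.07) and Gtf3c4 (0.65 ± 0.07), of the factor TFIIIC that binds internal promoters such as that of Bc1, rose. Snapc3 (-0.84 ± 0.10) and Snapc1 (-0.74 ± 0.12), of the complex that binds upstream promoters such as that of Rn7sk, fell. Other genes of each of these complexes passed in the opposite direction, so neither complex moved as a whole.

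Among partners of 7SK RNA, 3 genes were higher and 2 lower of 6 (median 0.14). Larp7, which guards the 3′ end of 7SK RNA, fell (-0.96 ± 0.18), as did the P-TEFb cyclin Ccnt2 (-0.57 ± 0.07). Mepce, which caps the RNA, rose (0.60 ± 0.10), as did the P-TEFb inhibitor Hexim1 (0.44 ± 0.08). Of 14 partners of BC1 RNA, 3 were higher and 8 lower (median -0.27). Syncrip (-1.10 ± 0.09), Hnrnpa2b1 (-0.91 ± 0.06) and Srp9 (-0.84 ± 0.14) encode RNA-binding proteins and fell. Cyfip1, a translational repressor that works with FMRP, rose (0.86 ± 0.07).

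Of 6 partners of Y RNAs and of La, 2 were higher and 4 lower (median -0.36). Ssb, the gene of La, which holds the 3′ ends of polymerase III transcripts, fell (-1.34 ± 0.11). Ro60 (-0.83 ± 0.08) and nucleolin, Ncl (-0.44 ± 0.06), fell too, and Ptbp1 rose (0.66 ± 0.11). Of 10 protein genes of RNase P and RNase MRP, 0 were higher and 1 lower (median -0.12), namely Rpp30 (-1.15 ± 0.20). The named genes of all 6 protein lists had edgeR adjusted p-values under 0.05 here.

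**Figure D5:**
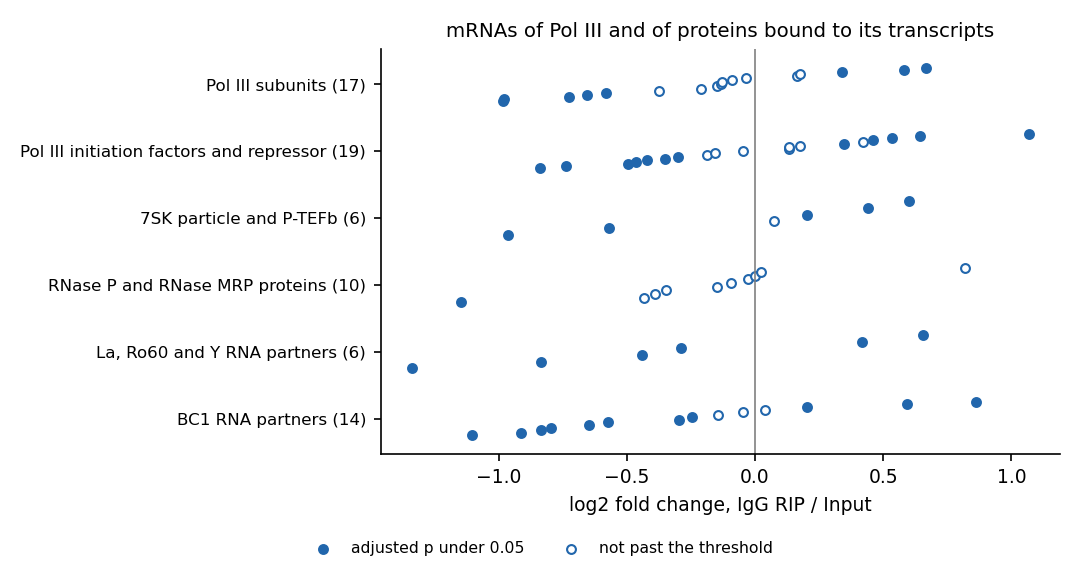
Log2 fold change of IgG RIP against Input for each tested gene of 6 lists of protein genes, with the number tested in parentheses, filled points past the threshold and open points not. Height within a line has no meaning, and each list but that of RNase P and RNase MRP holds filled points on both sides of 0.

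Scaled to library size alone, the all-gene median moved to -0.25, and 2714 genes were higher and 6345 lower, against 4483 and 4170. The subunits then gave 2 higher and 8 lower, the initiation factors 2 and 10, the BC1 partners 2 and 10, and RNase P and RNase MRP 0 and 3. The 7SK partners gave 2 and 2 and their median changed sign, to -0.09. The La and Y RNA partners kept their counts of 2 and 4. In the fit of all 8 libraries the counts were 1 and 2 for subunits, 2 and 2 for initiation factors and 0 and 1 for 7SK partners. They were 0 and 1 for RNase P and RNase MRP, 1 and 3 for La and Y RNA partners and 1 and 2 for BC1 partners. Polr2k, Larp7, Mepce, Hexim1, Ncl, Hnrnpa2b1 and Srp9 did not pass in that fit.

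In CaMKIIβ RIP against Input 4 of the 72 genes of these lists fell and 3 rose, 9.72% in all, near the 8.45% of all genes. The all-gene median was -0.12. Polr3f (-0.84 ± 0.20), Ccnt2 (-0.64 ± 0.13), Ro60 (-0.71 ± 0.13) and Syncrip (-1.10 ± 0.22) fell. Gtf3c1 (2.01-fold), Gtf3c4 (0.80 ± 0.16) and Cyfip1 (0.86 ± 0.13) rose. Each of the 7 also passed without CaMKIIβ RIP replicate 2, when 9 of the 72 were higher and 10 lower (26.4%, against 18.7% of all genes). Without replicate 1, 0 genes of any kind passed. With library size alone 2 of the 72 were higher and 9 lower, and Gtf3c4 did not pass (edgeR adjusted p = 0.0623). The all-gene median was then -0.29, and 683 of all genes were higher and 1361 lower, against 1117 and 751. In the fit of all 8 libraries 5 of the 72 were higher and 13 lower. Of the 10 RNase P and RNase MRP genes 0 passed, with Rpp30 at -0.85 ± 0.32 and Pop1 at -0.73 ± 0.36 (0.164 and 0.303).

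Between the antibodies 0 genes of the 6 protein lists passed, as for all genes. The smallest p-values belonged to Pop1 (-0.66 ± 0.30) and Rpp25l (1.03 ± 0.52) of RNase P, Puf60 (0.26 ± 0.12) and Ptbp1 (-0.33 ± 0.16) of the Y RNA partners, and Snapc4 (-0.35 ± 0.16) and Snapc1 (0.41 ± 0.20) of the initiation factors. Polr1d was at 0.40 ± 0.21, Crcp at -0.82 ± 0.45, Pabpc1 at -0.30 ± 0.17, Stau2 at -0.17 ± 0.10, Mepce at 0.15 ± 0.18 and Cdk9, the P-TEFb kinase, at 0.06 ± 0.14. Each had an edgeR adjusted p of at least 0.982. These values too moved without CaMKIIβ RIP replicate 2. Rpp25l was then at 0.10 ± 0.33, Pop1 at -0.42 ± 0.22, Puf60 at 0.13 ± 0.09, Polr1d at 0.15 ± 0.15 and Crcp at -0.45 ± 0.29. Pabpc1 was at -0.10 ± 0.09, Cdk9 at 0.14 ± 0.13 and Mepce, with its sign changed, at -0.07 ± 0.13.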

How the data were processed

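The authors deposited 1 table of raw counts per gene. Per the submitters' processing notes it was made with featureCounts 2.0.1 from STAR 2.7.3a alignments to GRCm38.p6, after trimming by cutadapt 2.10 through Trim Galore 0.6.4. The sources used here do not give strandedness, duplicate handling or an annotation release. Columns were assigned by name, and 0 were left out.

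Genes were named through RefSeq by a shared span of at least 0.5, without a close second partner (34132 of 55401 genes). Rmrp was taken from both genes it met.

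The test was the quasi-likelihood F test of edgeR 4.0.16 (R 4.3.3), with TMM and filterByExpr (minimum count 10, total 15), fitted to the libraries of each comparison. It was first run on simulated counts with the same dispersion for every gene and no outlying library. That run cannot show how the test behaves with CaMKIIβ RIP replicate 2. The members and the gene lists were chosen with earlier results of these data known. Named were every member, up to 4 genes of a list past the threshold with the largest change (else 2 with the smallest p), and the 3 genes most like Bc1 and Rn7sk.

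Alternatives tried were other scalings (RLE, upper quartile, library size), TMM without mitochondrial and ribosomal RNA genes, limma-voom (limma 3.58.1), DESeq2 1.42.0, no count filter or a stricter one, all 8 libraries in one fit, a block for the replicate number, testing against a 2-fold change, and leaving out each library. A fit of 7 libraries, without CaMKIIβ RIP replicate 2, was chosen after seeing the data. Replicate numbers were not used to pair libraries. Figures used matplotlib 3.10.9 and pandas 2.3.3 in Python 3.11.15.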

Additional observations from a re-analysis of the deposited data

How the results depend on the processing

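In IgG RIP against Input, Bc1 and Rn7sk kept their direction under 16 alternatives each, from -2.30 to -1.61 and from 0.43 to 0.77, and passed under 15. The exception was the fit of all 8 libraries, in which 0 members passed (all genes: 3676 against 8653). At a fold change of at least 2 there were 1 member and 338 genes. Leaving out a library gave 5659 (without Input replicate 2) to 9017 genes. In CaMKIIβ RIP against Input, 0 members passed under the alternatives, apart from 1 without CaMKIIβ RIP replicate 2 (0 to 1 over libraries left out) and 2 in the fit of 7 libraries. The count of all genes, 1868, became 2866 with no filter, 3448 with DESeq2, 3833 in the fit of all 8 libraries, 6039 in that of 7 libraries, 10 at a fold change of at least 2, and 0 to 4089 with a library left out. Between the antibodies the signs turned in the fit of 7 libraries (Bc1 0.27, Rn7sk -0.23) and without CaMKIIβ RIP replicate 2 (0.27 and -0.23), and the values ranged from -0.83 to 0.27 and from -0.23 to 0.42 with a library left out. Bc1 also moved with limma-voom and with the replicate number as a block, from -0.30 to -1.64 and -1.02 between the antibodies, and from -2.35 to -3.66 and -3.77 for CaMKIIβ RIP against Input. The cause was not tested. The summed level of the members in Input, 4057 CPM, was 4529 with library size alone and 4622 without mitochondrial and ribosomal RNA genes.

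With the replicate number as a block, 0, 4205 and 8931 genes passed in the order CaMKIIβ against IgG, CaMKIIβ against Input and IgG against Input, and 0, 0 and 2 members. Correlations of deviations between same-numbered libraries were -0.0976 to 0.000151 between the antibodies. They were 0.0715 and 0.124 between CaMKIIβ RIP and Input, and 0.0173 and 0.0209 between IgG RIP and Input. With 2 Input libraries, the deviations of one mirror those of the other. These values cannot decide whether libraries were paired, which the labels do not give. Bc1 had 0 to 292 counts per library, which limits its precision, and Rpph1, Rny3 and Rny1, with at most 32 counts in all, were not tested.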
